A study of Mus musculus with 2 samples.

Results

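The genes described here are 10 integrin subunits of blood cells, taken as a named list of receptor subunits: the α-subunit genes Itgal, Itgam, Itgax, Itgad, Itga4 and Itga2b and the β-subunit genes Itgb1, Itgb2, Itgb3 and Itgb7. They are 10 of 21523 protein-coding genes in the gene table, and all 10 matched it by symbol. The question was where FLAG-tagged HLF (hepatic leukemia factor, a PAR bZIP transcription factor) was recovered in and around these genes. The series has 2 chromatin immunoprecipitation libraries made with an anti-FLAG antibody, and both came from Lin-Sca-1+c-Kit+ cells of C57BL/6 mice aged 8 to 10 weeks, with blood given as the tissue. One was infected with a MigR1 retrovirus carrying 3xFLAG-HLF (labelled MigR1 3xFLAG-HLF/HLF), and the other with the empty MigR1 vector. Both cultures ran for 5 days with SCF, IL-7, Flt3L and IL-3. The tagged protein was thus delivered by virus, and the peaks describe introduced HLF, not the cells' own protein. The peaks of the FLAG-HLF library (n = 1) are used below; those of the empty-vector culture (n = 1) were not analysed here, so no peak was set against that control. The list holds 3153 peaks of 400 bp and no read counts, so its depth is unknown, no distance below carries a replicate error, and a gene without a peak may be bound below detection. A peak list holds no expression values, so the labelled cell type could not be checked against its markers.

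Integrins are membrane receptors built from 1 α and 1 β chain, and they hold cells to matrix and to other cells. Leukocytes are known for the β2 family, in which CD18 (Itgb2) pairs with CD11a (Itgal), CD11b (Itgam), CD11c (Itgax) or CD11d (Itgad). The α4 chain (Itga4) pairs with β1 (Itgb1) as VLA-4, which holds progenitors in bone marrow, or with β7 (Itgb7) in homing to the gut. αIIb (Itga2b, CD41) and β3 (Itgb3, CD61) form the fibrinogen receptor of platelets.

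FLAG-HLF peaks lay inside 6 of the 10 genes: Itgal, Itgam, Itgax, Itgb2, Itga4 and Itgb7. The other 4, Itgad, Itgb1, Itga2b and Itgb3, had none in the gene or its 20 kb flanks. Of all protein-coding genes, 6.94% had a peak centre in the body. The window of 20 kb on either side added no member, and the count of 6 stood beside 15.3% of protein-coding genes. Within 100 kb 9 of 10 members had a peak, beside 36.9%, and Itgb1 was the exception. No test was made, since the list was chosen with earlier results of these data known and the peaks come from 1 library, so these shares are a description and not independent evidence.

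**Figure D1:**
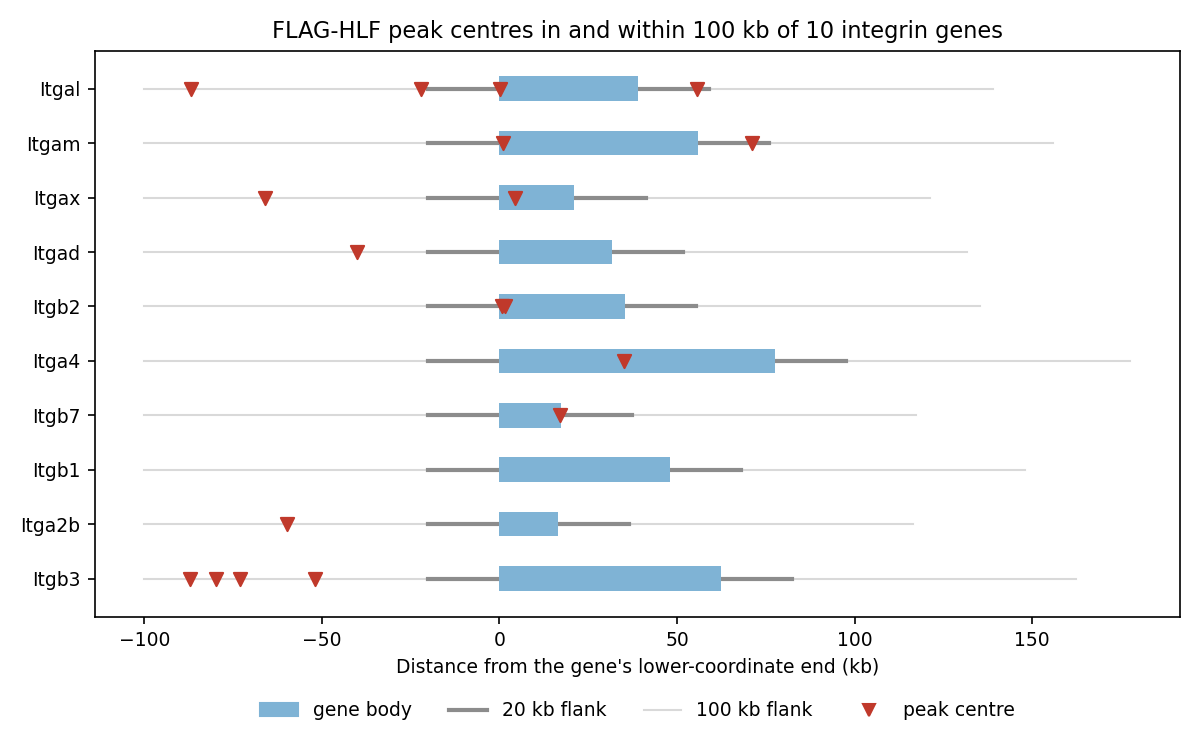
Each row is 1 integrin gene, drawn from its lower-coordinate end at 0, with distance in kb on the x axis; bars are gene bodies, lines the flanks and triangles the peak centres of the FLAG-HLF library. The peaks of Itgal, Itgam and Itgb2 sit at the left end of the body and that of Itgb7 at the right end, while Itgb1 has none.

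Longer genes offer more sequence in which a peak can fall, and the members ran from 16.6 kb (Itga2b) to 77.7 kb (Itga4). Among the 7832 protein-coding genes within these lengths, 8.06% had a peak in the body, 17.4% at up to 20 kb, and 40.4% at up to 100 kb. The members' shares were 60.0%, 60.0% and 90.0% under the same rules. Counting a peak in the body as 0, the median distance outside the gene to the nearest peak centre was 179 kb over all protein-coding genes and 0 kb over the members.

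**Figure D2:**
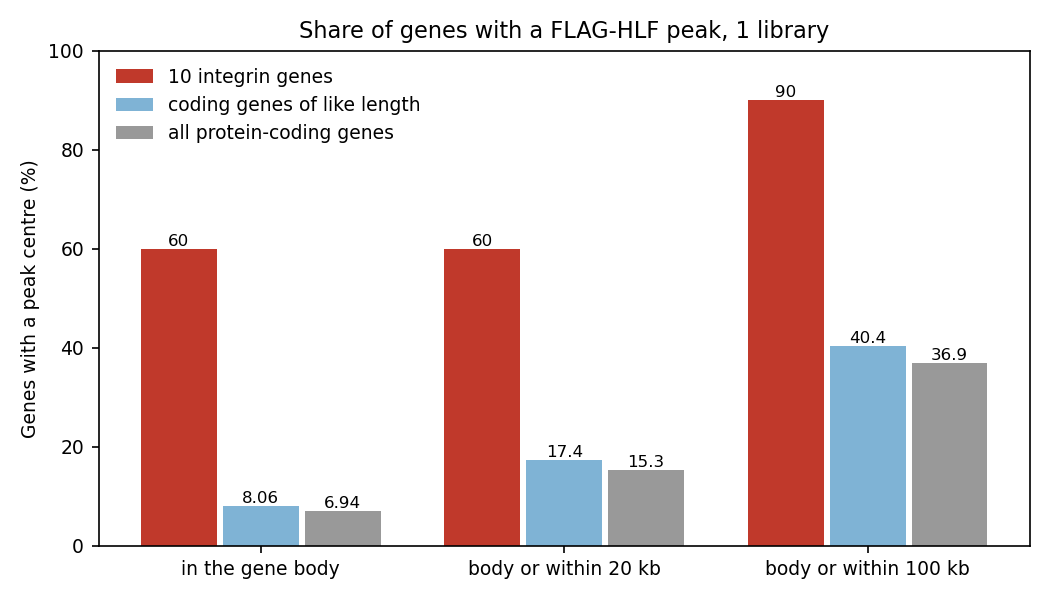
Bars give the percentage of genes with a FLAG-HLF peak centre (y axis, from 0) under 3 distance rules (x axis), for the 10 integrin genes, for protein-coding genes within the members' lengths and for all protein-coding genes. The integrin bars stand at 60.0%, 60.0% and 90.0%, and those of all protein-coding genes at 6.94%, 15.3% and 36.9%.

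The peaks of 4 members were close to an end of the gene. A peak centre lay within 1 kb of a gene end at Itgal (109 bp), Itgb7 (447 bp), Itgb2 (751 bp) and Itgam (932 bp), all of them inside the gene. This is 4 of 10 members, where 1.76% of protein-coding genes had a peak within 1 kb of an end; the 1 kb rule was chosen after these distances were seen. Itgal, Itgam and Itgb2 each had 2 peaks in the gene or its 20 kb flanks, beside 2.72% of protein-coding genes with 2 or more. Itgb2 alone among the members had both peaks inside the gene, a feature of 1.04% of protein-coding genes. Its 2 centres were only 952 bp apart, and the pair became 1 when peaks under 1 kb apart were merged. The shares in this paragraph cover genes of all lengths.

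The RefSeq promoter table (GRCm38.p6, the coordinates of mm10) gives the strand and start for 6 of the 10 genes, Itgam, Itgax, Itga4, Itgb1, Itgb7 and Itga2b. For the other 4 the 5′ end could not be told from the 3′ end. The 250 bases before the annotated start are shown for a pair of neighbouring β2-family genes with peaks (Itgam and Itgax), for Itgb7, whose peak lies upstream of the annotated start, and for Itga2b, which has no near peak. Sequences run 5′ to 3′ on the gene's strand, and capitals mark the searched letters named below.
Itgam, chr7:128062390-128062639, plus strand: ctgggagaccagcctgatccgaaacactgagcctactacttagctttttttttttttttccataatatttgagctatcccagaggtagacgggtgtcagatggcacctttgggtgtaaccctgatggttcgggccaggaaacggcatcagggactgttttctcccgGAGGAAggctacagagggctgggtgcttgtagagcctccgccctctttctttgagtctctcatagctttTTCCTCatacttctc
Itgax, chr7:128129300-128129549, plus strand: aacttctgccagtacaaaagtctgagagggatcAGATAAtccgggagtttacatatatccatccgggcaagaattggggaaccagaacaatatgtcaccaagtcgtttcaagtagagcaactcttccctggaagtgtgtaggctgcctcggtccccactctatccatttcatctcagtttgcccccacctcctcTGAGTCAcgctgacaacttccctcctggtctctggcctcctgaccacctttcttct
Itgb7, chr15:102231936-102232185, minus strand: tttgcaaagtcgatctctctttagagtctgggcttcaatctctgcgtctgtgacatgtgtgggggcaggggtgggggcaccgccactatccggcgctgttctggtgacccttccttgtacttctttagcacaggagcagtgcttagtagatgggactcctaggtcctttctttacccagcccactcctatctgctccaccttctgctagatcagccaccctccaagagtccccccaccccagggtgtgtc
Itga2b, chr11:102469884-102470133, minus strand: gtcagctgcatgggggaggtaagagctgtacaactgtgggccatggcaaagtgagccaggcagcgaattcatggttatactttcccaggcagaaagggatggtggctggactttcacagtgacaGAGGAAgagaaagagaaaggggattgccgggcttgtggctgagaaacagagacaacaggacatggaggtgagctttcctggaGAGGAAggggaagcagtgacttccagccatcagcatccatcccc

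No peak overlapped the promoter window of any of these 6 members, taken from 250 bases before to 50 after the start. Of the 21045 promoter entries of protein-coding genes, 0.841% were overlapped by a peak, so 0 of 6 is near the background. Itgal, Itgad, Itgb2 and Itgb3 had no entry and are not covered by this count. Among them, the inner Itgal peak spanned an annotated gene end. The Itgam peak was centred 932 bp downstream of its annotated start, and the Itgb7 peak 1023 bp upstream of its own. The Itgb7 peak still counts as inside the gene because the gene's annotated extent reaches further than this start. The Itgax peak was 4.25 kb and the Itga4 peak 34.9 kb downstream of the start. The 250 bases were searched on both strands for the PAR bZIP strings TTACGTAA and TTATGTAA, which 0.128% and 0.803% of the promoters hold, and neither was in the 6 member promoters. The C/EBP strings TTGCGCAA and TTGCGCAAT, of which the first is part of the second, were likewise in none of the 6, and were in 0.200% and 0.0570% of all promoters. GAGGAA, a core read by PU.1, occurred in Itgam (on each strand, the nearer match 10 to 15 bases before the start), in Itga2b (2 matches) and in Itgb1. It was in 22.5% of all promoters. The GATA factor string AGATAA (8.84% of promoters) and the AP-1 string TGACTCA (4.09%) were each in Itgax, and the RUNX string TGTGGT (12.2%) was in Itga4. Itgb7 held none of the 8 strings. These are letter matches in windows that no peak overlapped, and the sequence under the peaks was not used here.

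Among the β2 integrin genes, 4 of 5 had a peak in the body, beside 6.94% of protein-coding genes. Itgb2, which encodes the chain shared by all CD11 partners, lies on chromosome 10 (77530329 to 77565708, 35.4 kb). Its peaks were at 77530881 to 77531280 and at 77531833 to 77532232, centred 751 bp and 1.70 kb inside the lower-coordinate end. The centres were 952 bp apart, one of 23 neighbouring pairs in the whole list with centres under 1 kb apart. Both fell in the first 4.81% of the gene from that end. They also counted for 1 other protein-coding gene within 20 kb, Fam207a, whose end was 14.2 and 15.1 kb away. Itgb2 was the nearer gene for both.

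Itgal, which encodes the α chain of LFA-1, the T cell and leukocyte receptor for ICAMs, lies on chromosome 7 (127296139 to 127335137). Its inner peak (127296049 to 127296448) was centred 109 bp inside the lower-coordinate end, so the 400 bp interval covered that end. No other protein-coding gene was within 20 kb of this centre, though 12 were within 100 kb. The second peak lay 16.7 kb beyond the other end and was nearer to the zinc finger gene Zfp768, at 6.52 kb. Another, 22.0 kb away and just outside the 20 kb window, was 121 bp from an end of Sephs2, a selenophosphate synthetase gene, with Dctpp1 (13.5 kb) and Zfp771 (19.3 kb) also in reach. The farthest, at 86.9 kb, was inside Mylpf, a myosin light chain gene, and 804 bp from Tbc1d10b, with Septin1 (3.44 kb) and Cd2bp2 (13.2 kb) farther off. Of the 4 peaks within 100 kb, the inner one was thus the only one for which Itgal had the nearest gene end.

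Itgam, Itgax and Itgad lie side by side on chromosome 7 with no other protein-coding gene between them, over 143 kb. Gaps of 11034 bp and 23275 bp separate them. This span held 2 peaks, 70.2 kb apart. Itgam (128062640 to 128118491), the gene of the Mac-1 α chain and a myeloid cell marker, had the first (128063373 to 128063772), centred 932 bp inside. No other protein-coding gene lay within 20 kb of it. Itgax (128129526 to 128150657), the gene of the dendritic cell marker CD11c, had the second (128133605 to 128134004), centred 4.28 kb inside, or 20.2% of the way along the gene. The same peak lay 15.3 kb beyond the higher-coordinate end of Itgam, so it counts for both genes at 20 kb. Itgad (128173933 to 128205504), which encodes CD11d, had no peak of its own. Its nearest was the Itgax peak, at 40.1 kb, so within 100 kb the 3 genes shared that peak. Itgal is on the same chromosome but 728 kb from Itgam, with 35 protein-coding genes between, and shared no peak with the cluster.

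**Figure D3:**
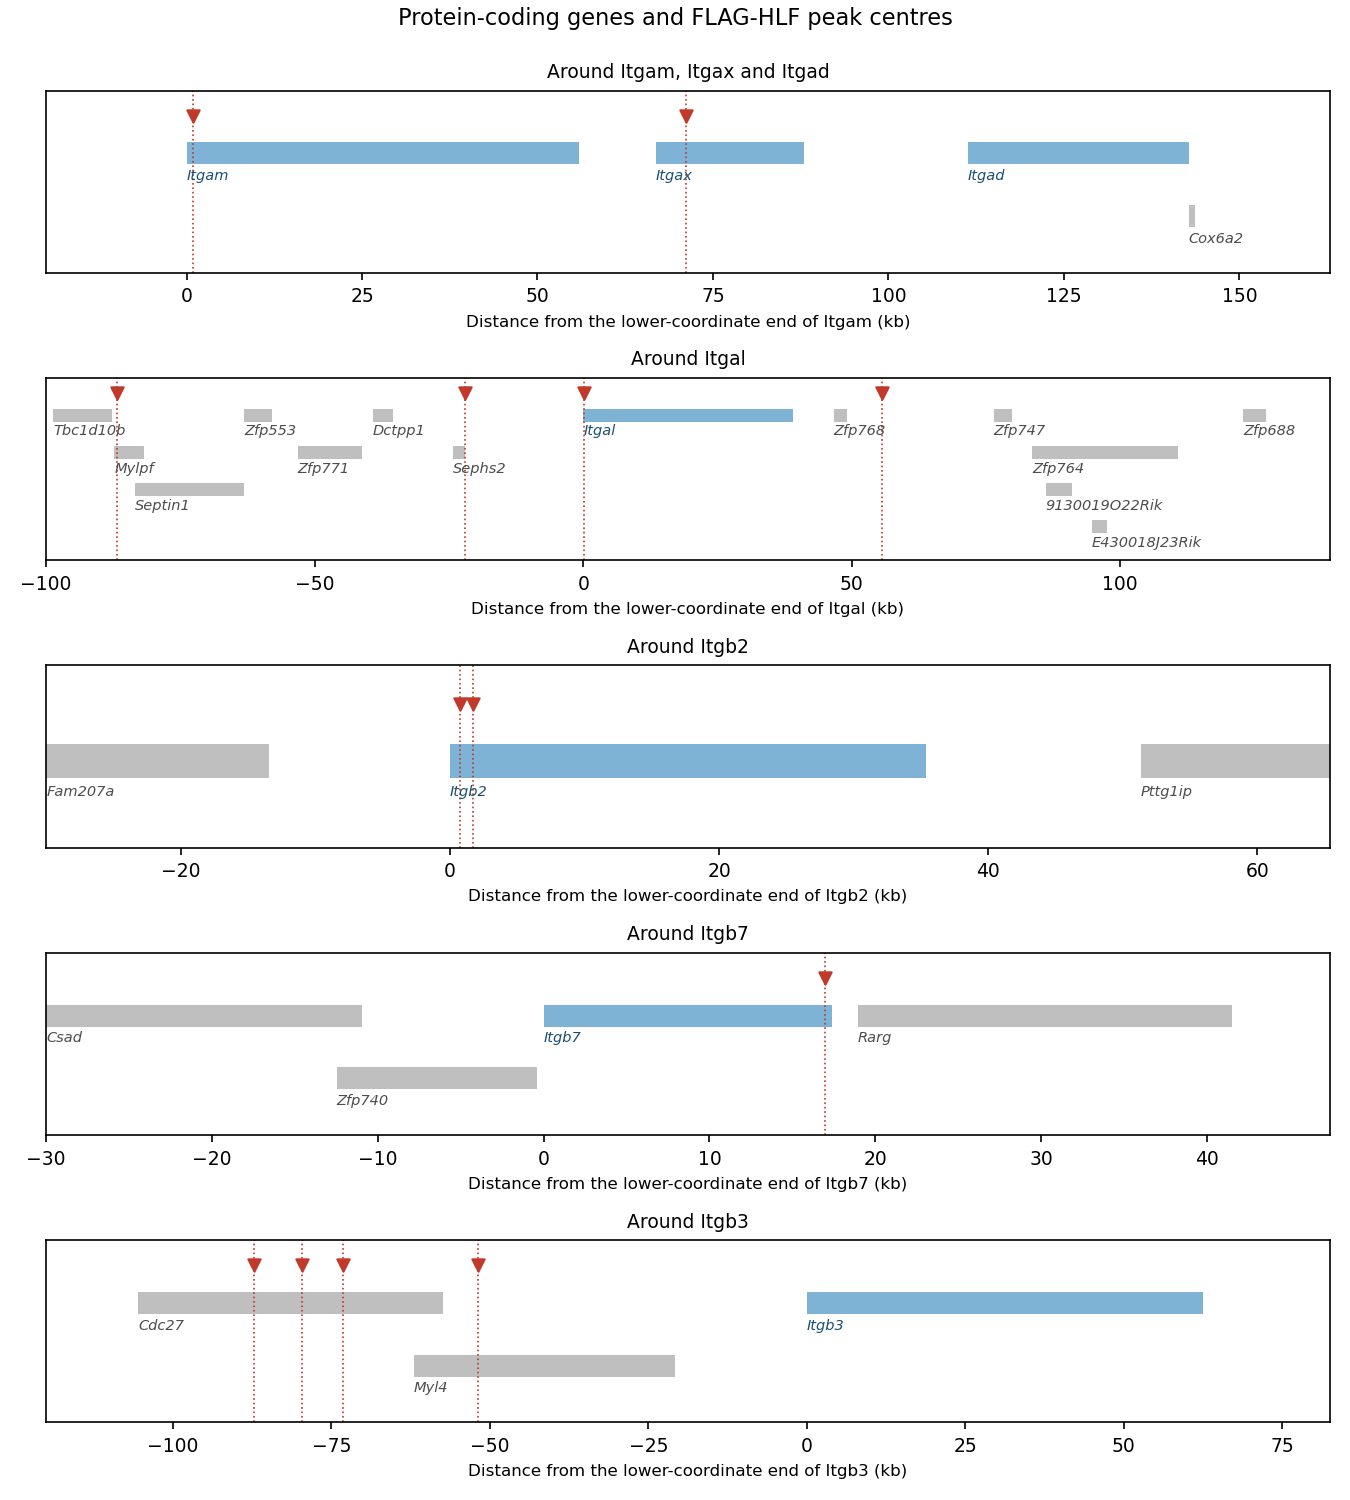
Panels show protein-coding genes (blue, integrin genes of the list; grey, neighbours) and FLAG-HLF peak centres (triangles and dotted lines), with distance in kb from the lower-coordinate end of the named gene on the x axis. The Itgax peak is 70.2 kb from the Itgam peak and 40.1 kb from Itgad, and the 4 peaks left of Itgb3 lie in Cdc27 and Myl4.

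Of the α4, β1 and β7 genes, Itga4 and Itgb7 each had 1 peak inside and Itgb1 had none. A peak in the body was found in 6.94% of protein-coding genes, so having none is the common state. Itga4 (chromosome 2, 79255426 to 79333114) had its peak at 79290163 to 79290562, 34.9 kb from the nearer end and 45.0% of the way along the gene. Among the peaks inside members it was the only one deep in the gene, and no other protein-coding gene lay within 20 kb of it. Itgb7 (chromosome 15, 102215994 to 102233405) had its peak at 102232759 to 102233158, 447 bp inside the higher-coordinate end. This peak was shared: it lay 1.98 kb from Rarg, which encodes the retinoic acid receptor γ, and 17.3 kb from Zfp740. Itgb1 (chromosome 8, 128685654 to 128733579), the gene of a β chain shared by many integrins, had its nearest peak 194 kb away. That peak (128490998 to 128491397) was inside Nrp1, a neuropilin gene, 14.3 kb from its nearer end.

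The platelet pair had no peak within 20 kb. Most protein-coding genes had none either, as 15.3% met this rule, so the absence at this pair is near the background. Itga2b (chromosome 11, 102453297 to 102469883), an early marker of the megakaryocyte lineage, had 1 peak within 100 kb, 59.8 kb beyond its lower-coordinate end. Since Itga2b is on the minus strand, this is the 3′ side. The peak was 80 bp inside Rundc3a and 9.49 kb from Slc25a39, a mitochondrial carrier gene. Itgb3 (chromosome 11, 104608000 to 104670476) had 4 peaks within 100 kb, at 51.8, 73.2, 79.7 and 87.2 kb, all on the lower-coordinate side. The nearest of these was inside Myl4, a myosin light chain gene, and the other 3 were inside Cdc27, a subunit gene of the anaphase-promoting complex. Neither Itga2b nor Itgb3 had the nearest gene end to any of these peaks.

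In total the members had 8 distinct peaks at up to 20 kb and 15 at up to 100 kb. Of the 8, 5 also counted for another protein-coding gene within 20 kb: the Itgax peak (Itgam), the outer Itgal peak (Zfp768), both Itgb2 peaks (Fam207a) and the Itgb7 peak (Rarg and Zfp740). The share of all peaks in the list with such a neighbour is not given, so 5 of 8 has no background beside it. The peaks counted for 1 protein-coding gene only were the inner peaks of Itgal and Itgam and the Itga4 peak. With every annotated gene as a neighbour, 7 of the 8 were shared. Taken by receptor, 4 of 7 pairings had a peak at up to 20 kb from both subunit genes: CD11a, CD11b and CD11c with CD18, and α4 with β7. In 2 pairings, CD11d with CD18 and α4 with β1, it was 1 of the subunit genes. The αIIb and β3 pair had neither. Pairings share subunits, so these counts restate the gene calls above and are not separate observations. Of single protein-coding genes, 15.3% met the 20 kb rule, and no share over other gene pairs was computed.

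The other 16 integrin subunit genes are mainly those of epithelial, matrix or mesenchymal receptors. Of these, 3 had a peak in the body (Itga6, Itga8 and Itgb5), beside 6.94% of protein-coding genes. At up to 20 kb 4 had a peak (25.0%, beside 15.3% of protein-coding genes). This list was not set against genes of like length. Itga6, the laminin receptor chain CD49f found also on stem cells, had 1 peak 14.9 kb inside. Itga8 had 1 at 1.89 kb inside, and Itgb5 1 at 27.7 kb inside and 1 at 1.81 kb outside, the latter shared with Umps and Kalrn. Itga2, the collagen receptor chain CD49b, had 1 at 14.2 kb outside, shared with Mocs2. None of the 16 had a peak within 1 kb of an end, a rule that 1.76% of protein-coding genes met, so a count of 0 in a list of this size is near the background. Itgae, whose CD103 chain also pairs with β7, had its nearest peak at 65.9 kb, and Itgav at 575 kb. The median distance outside the gene to the nearest peak was 90.1 kb for these 16 genes.

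**Figure D4:**
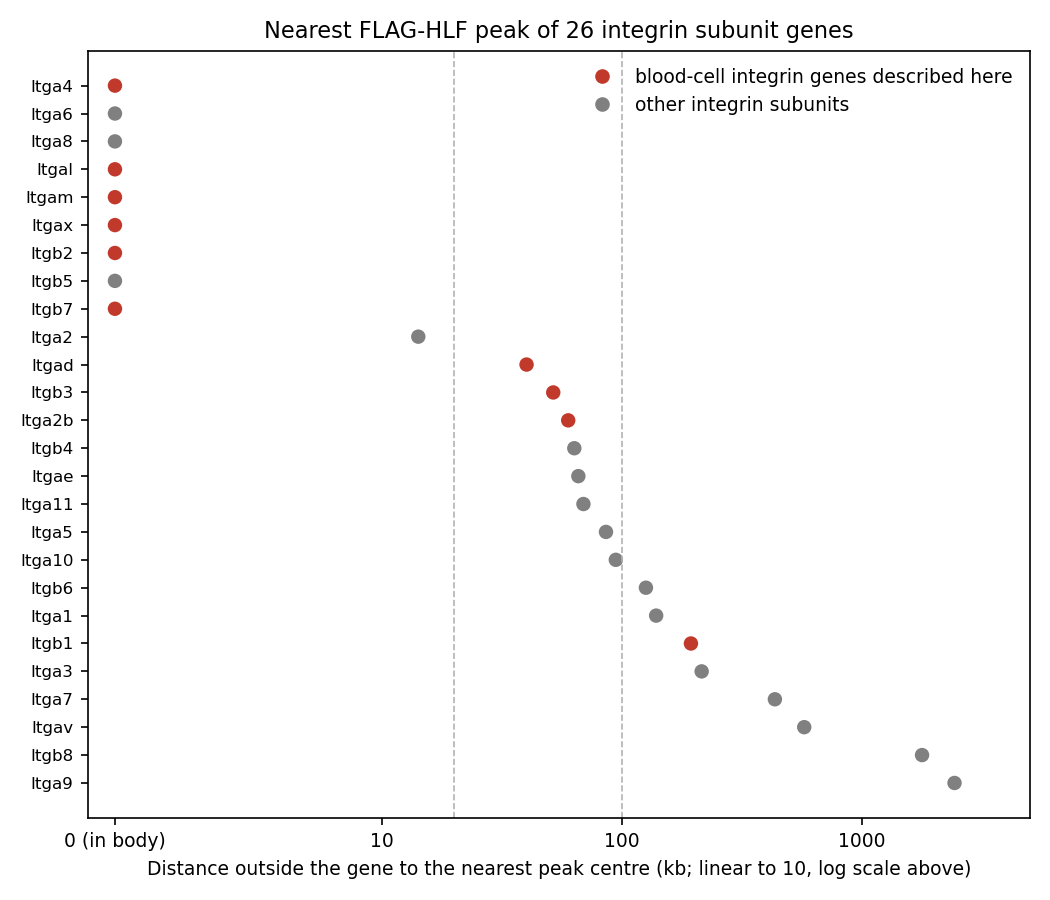
Dots give the distance in kb from each of 26 integrin subunit genes to the nearest FLAG-HLF peak centre outside the gene, with 0 for a peak in the body (x axis, linear to 10 kb and logarithmic above; dashed lines at 20 and 100 kb). Of the 10 blood cell genes (red), 6 are at 0, and Itgb1 at 194 kb is the farthest.

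Among 16 genes of integrin ligands, 5 had a peak inside or at up to 20 kb (31.2%, beside 15.3% of protein-coding genes). Icam2, a ligand of LFA-1, had 1 peak 678 bp inside the gene, with Ern1 and Prr29 also within 20 kb. Madcam1, the gut ligand of α4β7, had 1 at 1.59 kb inside, shared with Tpgs1 and Cdc34. Vwf, the von Willebrand factor that binds αIIbβ3, had 2 deep in the gene at 42.1 and 65.1 kb from the nearer end. Cdh1, the E-cadherin that binds the CD103 integrin, had 2 at 21.7 and 30.6 kb inside. C3, whose fragment iC3b is bound by Mac-1, had 1 at 5.49 kb outside, nearer to Tnfsf14. Icam1, Vcam1, Fn1 and the fibrinogen genes Fga, Fgb and Fgg were among the 11 without.

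Of 27 genes of integrin activation and signalling, 8 had a peak inside or at up to 20 kb (29.6%, beside 15.3% of protein-coding genes). Apbb1ip, which encodes the RAP1 effector RIAM that brings talin to integrins, had 2 inside at 1.31 and 17.6 kb from an end and 1 at 19.7 kb outside. The outside peak was shared with Pdss1. Rap1b, the small GTPase gene of this step, had 1 at 15.1 kb outside. Of the tyrosine kinase genes in the list, Syk, Lyn and Ptk2b were among the 8, while Fgr, Ptk2 and Src had their nearest peaks at 51.4, 368 and 704 kb. Syk had 1 peak 24.5 kb inside and 1 at 1.51 kb outside, and Lyn 1 at 3.82 kb inside and 1 at 12.7 kb outside. Ptk2b had 2 inside at 39.7 and 49.9 kb. Vav1, an exchange factor gene, had 1 at 7.88 kb inside and 2 outside at 14.1 and 17.9 kb, both shared with Adgre1. Lims1 had 1 at 28.5 kb inside, and Lcp2, the gene of the adaptor SLP-76, 1 at 10.5 kb outside. The genes of talin (Tln1) and of the kindlins (Fermt3 and Fermt2), which bind β tails directly, were among the 19 without. The shares of the ligand and signalling lists were not set against genes of like length.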

How the data were processed

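The authors' deposited peaks come as bare intervals in 3 columns with no score, read count or p-value, so positions are the only measurement and read depth is unknown. The 3153 intervals are all 400 bp wide. Per the submitters' processing notes, Bowtie2 2.0.6, MACS2 2.0.10 and mm10 are named without a role; the sources used here give neither the peak threshold nor any use of the control library. Positions have no error term, since there is 1 library with no replicate.

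The centre (BED start plus 200) was the peak's position. Genes came from the RefSeq table of GRCm38.p6: 49214 of 49997 rows on 19 autosomes and X, leaving out rows starting below 3 Mb (scaffold coordinates). Distances were taken to the nearer gene end. The members and lists were chosen with earlier results of these data known. Named genes are all members, protein-coding genes within 20 kb of their peaks, and genes of the 3 pathway lists (59 genes, all matched; 1 further gene is not reported here) with a peak within 20 kb, with examples of those without. Distance functions were tested on simulated data. Python 3.11.15, numpy 2.4.6 and pandas 2.3.3 were used. No sequence under the peaks was used.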

Additional observations from a re-analysis of the deposited data

How the results depend on the processing

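The count of 6 members with a peak in the body did not move when any overlapping base counted or when peaks under 1 kb apart were merged. The count of 6 at 20 kb was 6 with windows of 5 and 10 kb and 7 with 50 kb (Itgad added). With each peak given only to the gene with the nearest end, 6 members had a peak, in place of 9 at 100 kb. Merging left 7 of 8 distinct peaks at 20 kb and 14 of 15 at 100 kb, since the Itgb2 pair became 1. Peaks shared with another protein-coding gene went from 5 of 8 to 7 with every annotated gene as a neighbour and to 8 with neighbours within 100 kb; the wider rule takes in more genes by construction. Members with a peak within 1 kb of an end went from 4 to 2 at 500 bp (Itgal and Itgb7) and stayed at 4 at 2 kb, windows chosen after seeing the data. For the changed settings no share of all protein-coding genes is given, so these member counts have no background beside them. Stricter peak thresholds were not run, since the list has no score, and no replicate could be left out. No paired analysis was possible because the result comes from no test and 1 library.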
